A study of Mus musculus with 12 samples.

Results

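Wild-type (WT) mouse oocytes at MII were compared with WT oocytes at GV, the start and the end of meiotic maturation, by RNA-seq of polysome-bound RNA. The libraries are 2 at WT MII, after 16 h of culture, and 2 at WT GV, collected 48 h after PMSG, a gonadotropin that stimulates follicle growth, so 4 of the 12 libraries of the series. All mice were C57BL/6 at postnatal day 21. Of the 23235 genes in the table, 11667 had a mean of at least 1 FPKM (fragments per transcript length and library size) over the 12 libraries and were tested. The 2 WT libraries at MI, after 8 h of culture, and the libraries labelled Cnot6l-/- (2 at MII, 2 at GV), for a gene of a deadenylase subunit, are described only where named. All 12 libraries enter the filter and the estimate of spread behind each p-value. The labels do not say whether the 2 libraries of a group came from separate mice or pools, so p-values measure the spread between these samples, which may be technical.

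A GV oocyte is arrested in meiotic prophase with an intact nucleus, the germinal vesicle. On release it breaks the nuclear envelope down, forms the first spindle (MI), extrudes a polar body and arrests again at metaphase II (MII) as the egg that is fertilized. Transcription is largely silent during this time, and the oocyte works by storing, translating and degrading maternal mRNA. Many stored mRNAs carry cytoplasmic polyadenylation elements (CPEs) near their 3' end, lengthen their poly(A) tails and join polysomes on maturation, while many housekeeping mRNAs are deadenylated. The assay here counts mRNA that sediments with polysomes. A lower polysome-bound level can come from less mRNA or from fewer ribosomes on it, and these cannot be told apart in these values.

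As deposited, a minority of messages was higher in WT MII than in WT GV, among them most of a chosen list known for recruitment on maturation. Most listed messages for proteins of the ribosome, the mitochondrion and the proteasome were lower. Summed FPKM was 889989 and 884142 in WT MII and 1252142 and 1280736 in WT GV. Genes above 0 FPKM numbered 9116 and 9064 in WT MII and 12554 and 12616 in WT GV. The 100 highest genes held 44.8% and 44.75% of all FPKM in WT MII, against 30.6% and 30.78% in WT GV. Read depth is unknown, since the tables hold no counts. Replicates were less alike at MII: Pearson's r across genes on the log2(FPKM + 1) scale was 0.865 in WT MII and 0.927 in WT GV, and genes listed at 0 in 1 replicate but over 20 FPKM in its partner numbered 105 and 20.

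Changes are given as log2 differences, WT MII minus WT GV, of log2(FPKM + 1) with the standard error (SE) from limma, and a gene is called at a Benjamini-Hochberg adjusted p below 0.05, 2-sided. The pseudocount of 1 understates the change of low genes. As deposited, 702 genes rose (6.02% of those tested) and 4463 fell (38.3%), 44.3% in all, with a median change of -1.23. For median scaling, each gene's FPKM in a library was set as a ratio to its mean over the 12 libraries. Each library was then divided by its median ratio over genes of mean FPKM at least 10. After this scaling 2121 rose (18.2%) and 2632 fell (22.6%), 40.7% in all, with a median of -0.44. The scaling divided the WT MII libraries by 0.498 and 0.517 and the WT GV libraries by 1.17 and 1.18, and no standard in the files fixes which scale is right. All 702 genes that rose as deposited also rose after scaling, and 62 that fell as deposited rose after scaling. Called the same way on 5 library scales (deposited, median scaled, equal totals, quantile normalized and with an abundance trend removed) were 700 genes higher and 1919 lower. A fit of the 4 libraries alone kept 460 and 1675 of those. Unless the text says otherwise, a gene named below for its WT change is among the last 460 or 1675.

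**Figure D1:**
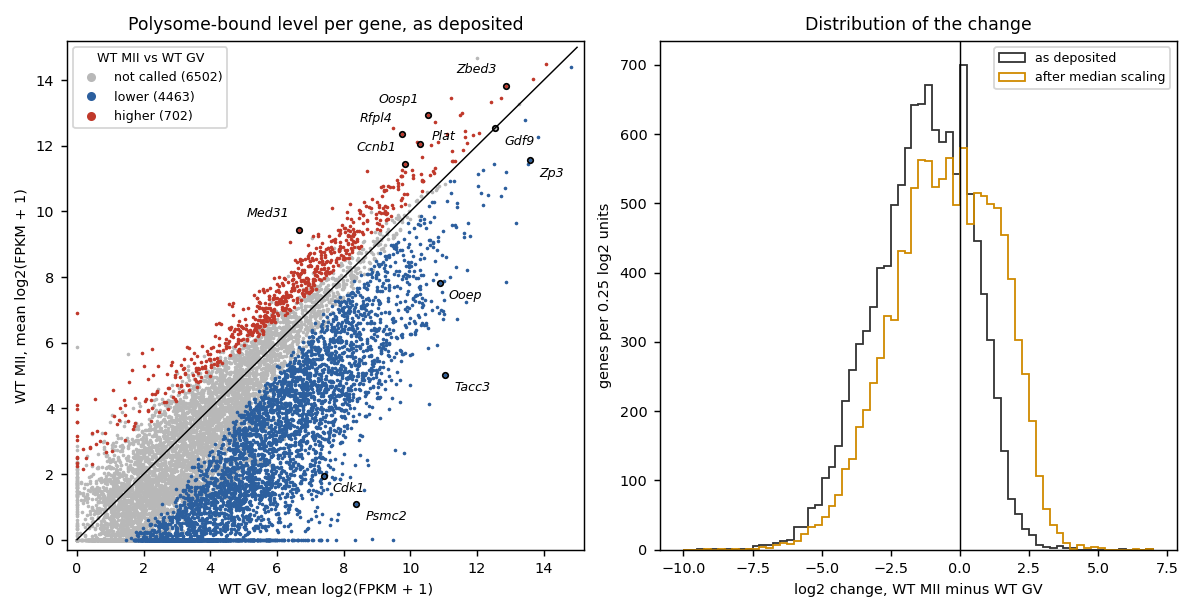
Mean log2(FPKM + 1) of each of the 11667 tested genes in WT MII (y axis) against WT GV (x axis), coloured by call as deposited, and the number of genes per bin of log2 change as deposited and after median scaling. The line marks equal levels; 4463 genes lie below it as called lower and 702 above it as called higher, and points on the bottom edge are genes at 0 in both WT MII libraries.

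Most of the listed maternal messages known for recruitment on maturation rose. The list holds 24 transcripts reported to be recruited to polysomes in this way, all tested. Of these 16 rose and 1 fell, with a median change of 0.96 against -1.23 for all genes. The list was chosen with earlier results of these data known, so the count is a description and no independent check. After median scaling 19 rose and 1 fell.

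Cyclin B1 (Ccnb1), the regulatory partner of the kinase that drives M phase, had 2709 and 2911 FPKM in WT MII and 936 and 903 FPKM in WT GV. Both MII libraries lay far above both GV libraries, a log2 change of 1.61 ± 0.089 (adjusted p = 2.9e-07). Mos, the kinase that starts the MAP kinase cascade and holds the MII arrest, had 2238 and 2088 FPKM in WT MII against 854 and 845 FPKM in WT GV, a change of 1.35 ± 0.077. Plat, tissue plasminogen activator and a classic message of regulated polyadenylation, had 4090.1 and 4504 FPKM in WT MII against 1240.2 and 1285 FPKM in WT GV, a change of 1.76 ± 0.072. Orc6, a subunit of the origin recognition complex that the egg needs for its first round of DNA replication, rose most of the list, with 605 and 624 FPKM in WT MII against 154 and 116 FPKM in WT GV (2.19 ± 0.17, adjusted p = 3.7e-06). Tpx2, which nucleates spindle microtubules, reached 224 and 203 FPKM in WT MII against 102 and 90 FPKM in WT GV.

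The remaining members behaved less alike. Dazl, an RNA-binding activator of translation, had 252 and 319 FPKM in WT MII against 199 and 188 FPKM in WT GV. Its call as deposited (change 0.55 ± 0.16, adjusted p = 0.0161) was lost in the fit of the 4 libraries alone, where the adjusted p was 0.0853. Wee2, the oocyte kinase that restrains Cdk1, had 379 and 361 FPKM in WT MII and 275 and 253 FPKM in WT GV. It was not called as deposited (adjusted p = 0.0614) and rose after median scaling, by 1.69. H1foo, the linker histone of oocytes and one of the most abundant messages, had 17124 and 16519.6 FPKM in WT MII against 12697 and 13333 FPKM in WT GV, a small rise of 0.37 ± 0.045 that was absent under quantile normalization.

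Some 3' ends are shown because the CPE is the element that cytoplasmic polyadenylation reads. They were picked with their letters known, as 5 risers with CPE letters and 1 without (Mos) and 3 fallers without CPE letters and 1 with them (Fbxo5). Each stretch lies in the last 100 bases of the gene's locus in the table (mouse build mm9, read 5' to 3' on the strand of the gene), with CPE letters (TTTTAT or TTTTAAT) and poly(A) signals (AATAAA or ATTAAA) in capitals. The stretches are chr13:101548731-101548758 on the minus strand for Ccnb1, chr4:118105516-118105545 on the minus strand for Cdc20, chr2:118467289-118467318 on the plus strand for Bub1b, chr11:72025234-72025263 on the minus strand for Med31 chr8:41578390-41578418 on the minus strand for Cnot7 and chr4:3797812-3797839 on the minus strand for Mos. Those of genes that fell are chr5:21309570-21309597 on the plus strand for Psmc2, chr5:136464463-136464490 on the plus strand for Zp3, chr10:81053656-81053683 on the minus strand for Tle6 and chr10:4547288-4547315 on the plus strand for Fbxo5.
Ccnb1: tcatttgctgTTTTAATttatacatctg
Cdc20: TTTTATTTTATtttttctAATAAAgttcgt
Bub1b: tttcactgtgtaTTTTATAATAAAatagtt
Med31: gttggcaaattTTTTATtAATAAAttattt
Cnot7: taaggtacaTTTTATatcAATAAAaatac
Mos: gcatatttttaggaAATAAAgttaccac
Psmc2: tgccaccgcacaaaAATAAAagatttaa
Zp3: tgtatcccttccgcAATAAAagaagaaa
Tle6: cccgagttgcgtgtAATAAAacaattga
Fbxo5: tgtgagttttTTTTATatctgtgaatac
In Med31 1 base and in Cnot7 3 bases separate the CPE letters from the signal, and in Bub1b they abut. In Ccnb1 the signal lies 22 bases after the CPE letters shown, and in Fbxo5 61 bases.

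Over all tested genes with a 100-base end, 301 of 702 genes that rose held CPE letters (42.9%), against 1388 of 6495 not called (21.4%) and 537 of 4462 that fell (12.03%), and 19.09% of all. After median scaling the shares were 33.2%, 17.9% and 10.9%. Read the other way, 13.5% of the 2226 genes with CPE letters rose and 24.1% fell, with a median change of -0.45. Of the 9433 genes without them 4.25% rose and 41.6% fell, with a median of -1.40. Genes that rose also had ends richer in A and T, on average 67.9% against 64.0% in genes not called and 60.6% in genes that fell. The same letters in reverse order (TATTTT or TAATTTT), which overlap the CPE letters in some ends, followed the classes too, at 34.9%, 22.45% and 15.1%. In the most A+T-rich quartile of ends the CPE shares were 56.45%, 39.25% and 26.8%, and the reversed shares 49.35%, 43.9% and 38.6%. The AU-rich letters TATTTAT were in 7.41%, 4.34% and 3.36%, and a poly(A) signal in the last 50 bases in 89.0%, 77.2% and 74.5%. Transcripts that fell were shorter, with a median length of 2157 bases and a median 3' UTR of 583 bases, against 2600 and 780 for those that rose and 3006 and 1000 for those not called. A match is a description of the letters and not a tested site, and what part base composition has in it was not tested.

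**Figure D2:**
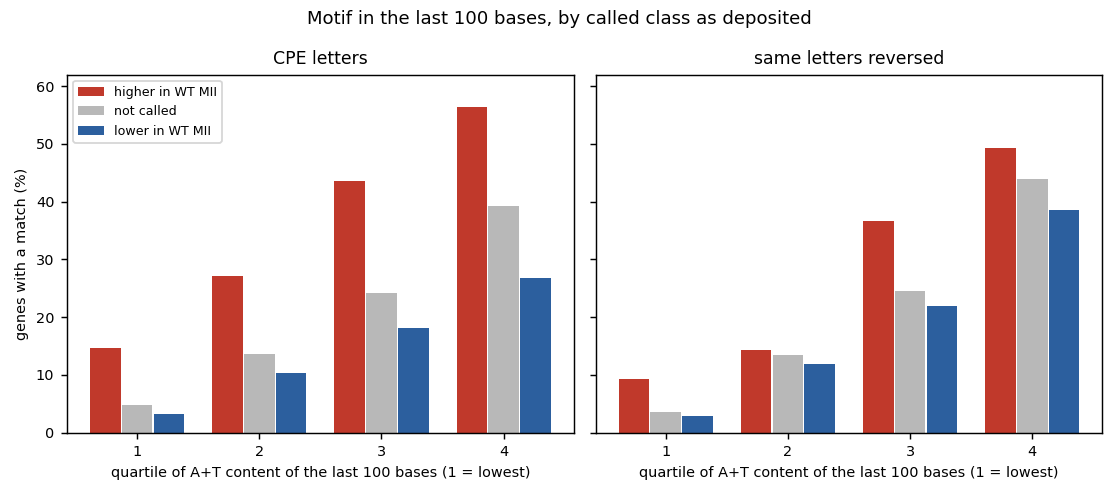
Share of genes (%) with CPE letters (left) and with the same letters reversed (right) in the last 100 bases, by quartile of A+T content, for genes higher in WT MII, not called, and lower in WT MII. In the most A+T-rich quartile 56.45%, 39.25% and 26.8% have CPE letters and 49.35%, 43.9% and 38.6% the reversed letters.

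Genes of cell cycle exit and of the checkpoint split within their complexes. Of 28 tested genes of the anaphase-promoting complex, its inhibitors and the spindle checkpoint, 11 rose and 11 fell (median -0.23), and 13 rose and 5 fell after median scaling (median 0.97). The 11 fallers are a share near the 38.3% of all genes, of which 6.02% rose. Cdc20, the activator of the complex at anaphase, had 1020.3 and 1085 FPKM in WT MII against 369.8 and 338 FPKM in WT GV (1.57 ± 0.15). Fbxo43, known as Emi2, which inhibits the complex and keeps the egg at MII, had 199 and 208 FPKM in WT MII against 44.4 and 67.1 FPKM in WT GV (1.88 ± 0.27). Its relative Fbxo5 (Emi1) went the other way, with 36.6 and 12.5 FPKM in WT MII against 153 and 184 FPKM in WT GV (-2.90 ± 0.42). The checkpoint kinase pair split likewise. Bub1b (BubR1) had 1729 and 1804 FPKM in WT MII against 578 and 571 FPKM in WT GV (1.62 ± 0.089), while Bub1 had 0.45 and 2.91 FPKM in WT MII against 37.9 and 53.6 FPKM in WT GV (-4.28 ± 0.48). Anapc2, the cullin subunit of the complex, had 1.52 and 4.77 FPKM in WT MII against 76.2 and 79.4 FPKM in WT GV.

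Cdk1, the catalytic partner of cyclin B1, ran opposite to its cyclin. It had 2.16 and 3.67 FPKM in WT MII against 167 and 171 FPKM in WT GV, a change of -5.46 ± 0.29 (adjusted p = 2.1e-07). Of 29 tested genes of cyclin B, Cdk1 and the Mos and MAP kinase pathway, 6 rose and 12 fell (median -0.53), a balance that turned to 14 and 4 after median scaling (median 0.65). The 12 fallers are a share near the 38.3% of all genes. Map2k1 (MEK1) was among the risers, with 838 and 909 FPKM in WT MII against 252 and 344 FPKM in WT GV (1.57 ± 0.20). Of 40 spindle and kinetochore genes 11 rose and 12 fell (median -0.12), a share of fallers below that of all genes. After median scaling 21 of these rose and 8 fell (median 1.08). The largest fall there was Tacc3, a spindle pole protein, with 31.1 and 32.3 FPKM in WT MII against 2081 and 2151 FPKM in WT GV (-6.02 ± 0.11, adjusted p = 2.1e-10). Spc25, a kinetochore subunit, fell too (-4.37 ± 0.41), while Kif20a, a kinesin of cytokinesis, rose to 266 and 237 FPKM in WT MII against 50.6 and 68.7 FPKM in WT GV. The microtubule polymerase Ckap5 rose by 1.87. Of 28 genes of cohesin, condensin and meiotic chromosomes 3 rose and 9 fell (median -0.058), and 10 rose and 5 fell after median scaling (median 0.84). The 9 fallers are a share near the 38.3% of all genes.

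Deadenylases and decay factors split by subunit. Of 26 tested genes of the CCR4-NOT complex, other deadenylases and their adaptors, 6 rose and 9 fell (median -0.61), which turned to 11 and 3 after median scaling (median 0.23). The 9 fallers are again a share near the 38.3% of all genes. Cnot7, a catalytic deadenylase, had 484 and 608 FPKM in WT MII against 208 and 183 FPKM in WT GV (1.47 ± 0.14). Btg4, which brings the complex to maternal mRNA, had 4836 and 5113 FPKM in WT MII against 3269 and 3124 FPKM in WT GV (0.64 ± 0.045, adjusted p = 1.9e-06). Pan2, the catalytic subunit of another deadenylase, rose by 2.03 ± 0.32. Cnot10, a non-catalytic subunit, had 0 and 0.66 FPKM in WT MII against 40.9 and 37.8 FPKM in WT GV, and the antiproliferative adaptor Tob2 fell by 3.06 on the log2 scale. Cnot6l itself had 65.2 and 49.4 FPKM in WT MII against 38.7 and 16.1 FPKM in WT GV. That was not called as deposited (adjusted p = 0.128) and rose after median scaling by 2.33 (adjusted p = 0.00939). Zfp36l2, an RNA-binding decay adaptor, was listed at 0 in both WT MII libraries, against 7.88 and 4.37 FPKM in WT GV.

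Of 30 decapping, uridylation, exosome and exonuclease genes 5 rose and 10 fell (median -0.51), a share of fallers near that of all genes, and 13 rose and 7 fell after median scaling (median 0.69). Dcp1a, the decapping cofactor, had 693 and 615 FPKM in WT MII against 240.1 and 230.0 FPKM in WT GV (1.47 ± 0.18), and the nuclear exonuclease Xrn2 had 117 and 149.7 FPKM in WT MII against 26.9 and 43 FPKM in WT GV. Exosc1, an exosome cap subunit, fell by 3.35. Of 36 genes for mRNA storage and poly(A) binding 4 rose and 18 fell, at a median of -1.23 that equals the median of all genes, and 9 rose and 10 fell after median scaling. The embryonic poly(A)-binding protein Pabpc1l had 41.3 and 39.7 FPKM in WT MII against 371 and 399 FPKM in WT GV (-3.22 ± 0.17). Cpeb1, the protein that binds the CPE, had 359 and 409.8 FPKM in WT MII against 1361 and 1344 FPKM in WT GV (-1.82 ± 0.098), and fell after median scaling as well, by 0.61 (adjusted p = 0.00052). Zar1l fell by 3.91. Ybx2, a packaging protein of stored mRNA, had 45.8 and 15.1 FPKM in WT MII against 178 and 165 FPKM in WT GV; its call was lost in the fit of the 4 libraries (adjusted p = 0.0506). Paip1, a poly(A)-binding protein partner, rose by 0.65. Eif4e1b, the oocyte cap-binding protein, was not called, with 75.8 and 45.3 FPKM in WT MII and 142 and 95.1 FPKM in WT GV (adjusted p = 0.0541).

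Cytosolic ribosomal protein genes had the lowest median of the lists. Of 80 tested, 72 fell and 4 rose, with a median change of -2.83 as deposited. After median scaling 57 fell and 7 rose, with a median of -1.63 against -0.44 for all genes. The share of all genes that fell was 38.3% as deposited and 22.6% after scaling. Their summed FPKM was 21310 and 22080 in WT MII against 66380 and 66110 in WT GV. Rps4x had 44 and 6.45 FPKM in WT MII against 752 and 894 FPKM in WT GV (-5.49 ± 0.62), and Rpl26 was listed at 0.02 and 0.02 FPKM in WT MII against 482 and 444 FPKM in WT GV. Rpl41 and Rps27l were among the exceptions. Rps27l, a paralog of Rps27, had 1472 and 1734 FPKM in WT MII against 568 and 655 FPKM in WT GV (1.39 ± 0.15), and Rpl41 had 5554 and 5753 FPKM in WT MII against 3488 and 2859 FPKM in WT GV (0.84 ± 0.079). Ribosomal protein genes have many near-identical processed copies, and how reads shared with them were counted is not given in the sources used here, so single members are uncertain.

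The other housekeeping groups also had many more fallers than risers as deposited. Mitochondrial ribosomal proteins fell in 65 of 76 and rose in 2 (median -2.48). Nuclear-encoded subunits of the respiratory chain and ATP synthase fell in 60 of 77 and rose in 4 (median -2.21). Proteasome subunits fell in 32 of 41 and rose in 3 (median -2.46). Chaperones fell in 21 of 30 and rose in 2 (median -2.22), and enzymes of central metabolism and redox defence fell in 23 of 37 and rose in 2 (median -1.98). Among 57 translation factors 35 fell and 4 rose (median -1.67), and tRNA synthetases fell in 13 of 21 and 0 rose, also 0 at an unadjusted p below 0.05 in limma (median -1.82). After median scaling each of these groups still had more fallers than risers, 37 and 6, 47 and 13, 26 and 9, 15 and 8, 14 and 7, 26 and 15, and 10 and 4 in the same order. More fallers than risers also held for all genes, with 38.3% and 6.02% as deposited and 22.6% and 18.2% after scaling. After scaling each group had a share of fallers above that of all genes. Apart from the mitochondrial ribosomal proteins, the share of risers was then near or above that of all genes. Among all tested genes, binned by FPKM in Cnot6l-/- GV, the share that fell grew with level as deposited. The share that rose was lowest from 1 to 5 FPKM and grew above that. From 0 to 1 FPKM 12.3% fell and 2.43% rose, and from 1 to 5 FPKM 13.6% and 1.22%. From 5 to 20 FPKM it was 30.05% and 2.67%, and from 20 to 100 FPKM 50.6% and 7.48%. From 100 to 500 FPKM it was 63.8% and 13.95%, and above 500 FPKM 67.9% and 20.4%. The part of abundance in the group counts was not tested. None of the symbols of the mitochondrial genome list is in the table.

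Single members show the depth of these falls. Psmc2, a proteasome ATPase, had 1.56 and 0.75 FPKM in WT MII against 354 and 309 FPKM in WT GV, a change of -7.29 ± 0.36 (adjusted p = 1.3e-07). Psmc1, another ATPase of the same ring, had 4.35 and 3.35 FPKM in WT MII against 419 and 422 FPKM in WT GV (-6.45 ± 0.25). Mrps22, of the small mitochondrial subunit, had 3.71 and 0.72 FPKM in WT MII against 402 and 379 FPKM in WT GV. Gnl2, a nucleolar GTPase of ribosome assembly, fell to 0.45 and 0.87 FPKM in WT MII, against 121 and 169 FPKM in WT GV. The initiation factor Eif3g had 20.6 and 17.2 FPKM in WT MII against 639.7 and 775 FPKM in WT GV (-5.15 ± 0.17), and the helicase cofactor Eif4h fell by 5.29. The chaperonin subunit Cct2 fell by 5.90, and the mitochondrial malate dehydrogenase Mdh2 had 60.9 and 12.4 FPKM in WT MII against 628 and 577 FPKM in WT GV.

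As deposited, each of these groups except the tRNA synthetases also held risers. After median scaling 4 of 21 synthetases rose, a share near the 18.2% of all genes. Psma2, a proteasome core subunit, had 4106 and 4167 FPKM in WT MII against 1631 and 1508 FPKM in WT GV (1.40 ± 0.072, adjusted p = 1.6e-07). Ndufa4, a respiratory chain subunit, had 1784 and 1643 FPKM in WT MII against 674 and 655 FPKM in WT GV (1.36 ± 0.095). Eif3i rose by 1.54, opposite to its partner Eif3g in the same complex, and the chaperone Hsp90ab1 rose by 0.99. The peroxidase Prdx1, an abundant message, had 5140.3 and 5598 FPKM in WT MII against 4177 and 4282 FPKM in WT GV (0.34 ± 0.055).

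**Figure D3:**
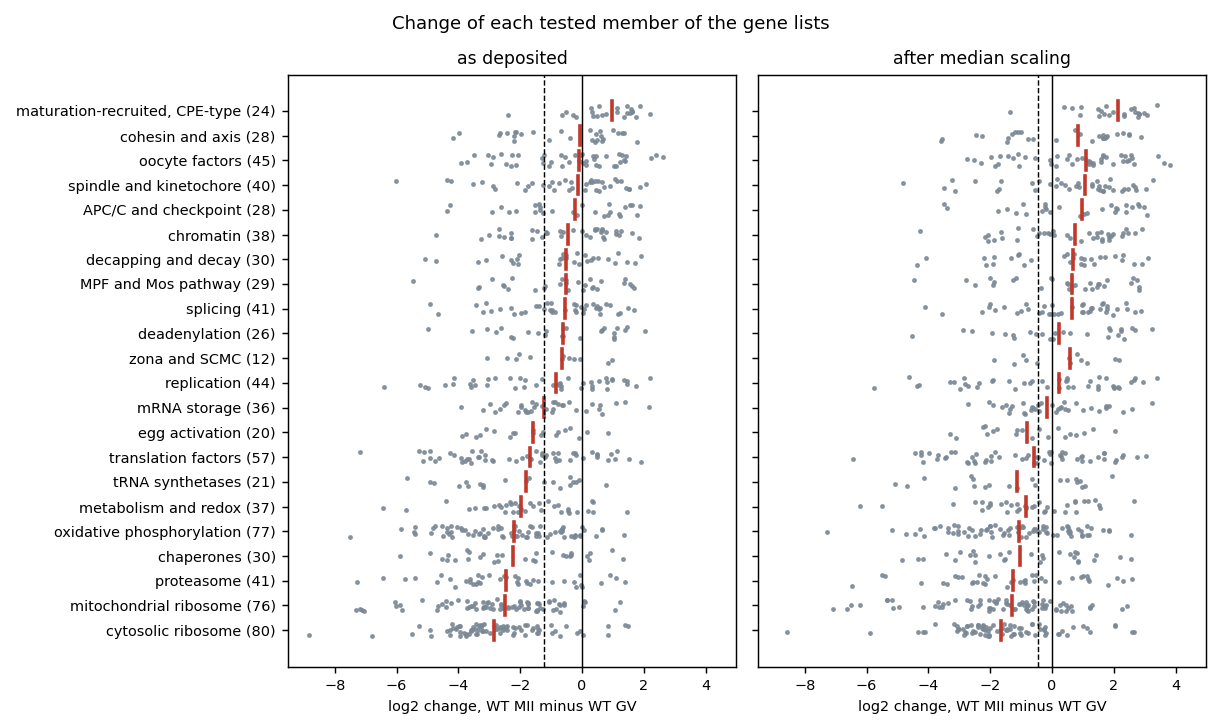
Log2 change, WT MII minus WT GV, of each tested member of 22 gene lists (points), with the list median (red bar), the median of all genes (dashed line) and 0 (solid line), as deposited and after median scaling. Lists are ordered by their median, with the number of tested members in brackets; the median runs between -2.83 for cytosolic ribosomal proteins and 0.96 for the maturation-recruited list. Genes at 0 in both libraries of a group sit at their fitted value, which is no bound.

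Licensing and replication genes were mixed, with 10 of 44 higher and 22 lower (median -0.84), and 16 higher and 13 lower after median scaling (median 0.23). Among all genes 6.02% rose and 38.3% fell as deposited, and 18.2% and 22.6% after scaling. Mcm5, a subunit of the replicative helicase, had 0.56 and 0.54 FPKM in WT MII against 123 and 137 FPKM in WT GV (-6.40 ± 0.30), while Mcm2, another subunit of the same ring, had 419 and 424 FPKM in WT MII against 137 and 114 FPKM in WT GV (1.74 ± 0.29). The sliding clamp Pcna rose, with 694 and 738 FPKM in WT MII against 247 and 268 FPKM in WT GV. Among 38 maternal chromatin and DNA methylation genes 7 rose and 16 fell (median -0.44), a share of fallers near that of all genes, which turned to 18 and 6 after median scaling (median 0.76). Chaf1a, a histone chaperone, fell by 3.25. Of 41 splicing genes 9 rose and 14 fell (median -0.54), a share of fallers near that of all genes, and 19 rose and 8 fell after median scaling (median 0.66). The small core proteins Snrpg (2447 and 2417 FPKM in WT MII against 829.5 and 892 FPKM in WT GV) and Snrpe (1878 and 1823 against 773 and 809) rose, and the snRNP factor Prpf3 fell by 4.92. Of 12 tested genes of early embryos 1 rose, the transcription factor Sall4 (1.45 ± 0.17), and 4 fell, Dppa2 by 3.70 among them (median -1.34). These 4 are a share near that of all genes, and after median scaling 3 rose and 2 fell.

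The oocyte's own products did not move as 1 group. Of 45 tested oocyte factors 16 rose and 17 fell (median -0.10), a share of fallers near that of all genes. After median scaling 26 rose and 11 fell (median 1.10). Oosp1, an oocyte-secreted protein, had 7941 and 7652 FPKM in WT MII against 1479.6 and 1457 FPKM in WT GV (2.41 ± 0.062, adjusted p = 1.9e-09). Rfpl4, a RING-finger protein of oocytes, had 5089 and 5383 FPKM in WT MII against 996 and 738 FPKM in WT GV (2.61 ± 0.12). Nobox and Lhx8, transcription factors of follicle growth, fell. Nobox had 104 and 115 FPKM in WT MII against 1181 and 1285 FPKM in WT GV (-3.48 ± 0.12), and Lhx8 fell by 3.91. Oas1c, an oocyte member of the oligoadenylate synthetase family, fell by 3.71, and Npm2, a histone chaperone that acts on sperm chromatin, had 488 and 338 FPKM in WT MII against 1988 and 1981 FPKM in WT GV (-2.29 ± 0.13).

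Of 12 tested genes of the zona pellucida and the subcortical maternal complex 8 fell and 2 rose (median -0.63), and after median scaling 5 fell and 7 rose. For all genes these shares were 38.3% and 6.02% as deposited, and 22.6% and 18.2% after scaling. Zp3, the zona protein, had 3035 and 2992 FPKM in WT MII against 12192 and 12487 FPKM in WT GV (-2.03 ± 0.036, adjusted p = 1.6e-10). Among the proteins of the subcortical maternal complex, which the early embryo needs for cleavage, Ooep had 210.3 and 239 FPKM in WT MII against 1847 and 1911 FPKM in WT GV (-3.06 ± 0.088) and Tle6 1734 and 1643 FPKM in WT MII against 7255 and 7543 FPKM in WT GV (-2.13 ± 0.052). Padi6, a component of the cytoplasmic lattices, had 2437 and 2295 FPKM in WT MII against 7538 and 7547 FPKM in WT GV (-1.67 ± 0.045), and Nlrp2 fell by 2.42. Zbed3, reported as a member of the same complex, ran against them, with 14575 and 14384 FPKM in WT MII and 7419 and 7411 FPKM in WT GV (0.97 ± 0.041, adjusted p = 4.3e-08). Astl, the egg protease ovastacin that hardens the zona, rose as well (0.83 ± 0.072).

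For several abundant oocyte messages the direction depended on the library scale. Bmp15, a growth factor that signals to cumulus cells, had 869 and 871 FPKM in WT MII and 1379 and 1362 FPKM in WT GV, a change of -0.65 ± 0.069 as deposited and of 0.55 after median scaling, both called. Zp1 (-0.41 and 0.80), Nlrp5 (-0.66 and 0.54) and the DNA methyltransferase Dnmt1 (-0.28 and 0.93) did likewise. The call of Dnmt1 as deposited was lost with 1 weight per group, in the fits of the 4 libraries or of the 6 WT libraries alone, and without WT GV replicate 1, WT GV replicate 2 or WT MII replicate 1. Gdf9, the partner growth factor, had 5797 and 6006 FPKM in WT MII and 5750.1 and 6182 FPKM in WT GV. It was not called as deposited (adjusted p = 0.854) and rose by 1.19 after scaling, and Zp2 and Dppa3 did the same, by 1.13 and 1.22. Dppa3 protects the maternal genome from demethylation after fertilization. Ldhb, lactate dehydrogenase B, was the highest gene of both WT GV libraries and is singled out after its values were seen. It had 21864 and 21472 FPKM in WT MII against 28350.5 and 29239 FPKM in WT GV, lower as deposited (-0.41 ± 0.031) and higher after scaling (0.80). Each of these changes stood above the median of all genes on both scales.

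Of 20 tested genes of calcium signalling, cortical granules and sperm fusion 1 rose, Astl, and 12 fell (median -1.58), and 2 rose and 6 fell after median scaling. The shares of all genes were 6.02% and 38.3% as deposited, and 18.2% and 22.6% after scaling. The calcium-binding chaperone Calr had 38.1 and 50.5 FPKM in WT MII against 491 and 466 FPKM in WT GV (-3.42 ± 0.22), and the protein kinase C isoform Prkcd fell by 3.88. Folr4, known as Juno, the egg receptor for sperm, is singled out after its values were seen. It had 163 and 180.2 FPKM in WT MII against 807 and 749.6 FPKM in WT GV (-2.18 ± 0.14).

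Among the 8 largest rises of genes above 0 in all 4 libraries were Nupr1, a stress-responsive chromatin protein, and Med31, a subunit of the Mediator complex. Nupr1 had 47 and 65.2 FPKM in WT MII against 5.76 and 2.29 FPKM in WT GV (3.58 ± 0.49). Med31 had 729 and 655 FPKM in WT MII against 107 and 91.6 FPKM in WT GV (2.79 ± 0.14, adjusted p = 1.5e-07). As deposited, a fold of 2 or more was reached by 489 of the called risers and 4305 of the fallers, and a fold of 4 or more by 91 and 3417. These fold counts shift with the library scale.

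Absence from 1 stage was one-sided. Of the tested genes 1442 were above 0 in both WT GV libraries and at 0 in both WT MII libraries, and 21 the other way. Above 20 FPKM in both libraries of the group where they were present were 138 of the 1442 and 1 of the 21. Inha, the inhibin alpha chain of granulosa cells, was listed at 0 in WT MII against 201 and 239 FPKM in WT GV. Atp5d, a subunit of ATP synthase, was at 0 against 176 and 188 FPKM, Mrpl55 of the large mitochondrial subunit at 0 against 138 and 179.9 FPKM, and Lypd3 at 0 against 159 and 147 FPKM. In the other direction Spp1, the secreted protein osteopontin, had 129 and 111 FPKM in WT MII and was at 0 in both WT GV libraries. Ptx3, a matrix protein of the expanded cumulus, had 17.1 and 15.3 FPKM in WT MII and 0 in WT GV. Fewer genes were detected in the WT MII libraries, so a 0 there cannot be told apart from a level below detection at their unknown depth.

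All 10 oocyte markers were above 0 in every library of both groups. Their summed FPKM was 14920 and 14940 in WT MII against 28940 and 29370 in WT GV. Of 22 cumulus and granulosa markers 15 were at 0 in both WT MII libraries and 9 in both WT GV libraries. The summed FPKM of the 22 was 84.7 and 59.2 in WT MII against 314.6 and 359.9 in WT GV, where Inha alone had 201 and 239. Amh, Fshr and Nr5a1 were among those at 0 in WT MII, and Foxl2 was at 0 in both groups. Of the 13 tested, 6 fell and 1 rose, Ptx3, and 4 fell and 2 rose after median scaling. These are shares near those of all genes, 38.3% and 6.02% as deposited and 22.6% and 18.2% after scaling. Of 18 markers of theca, stroma, endothelium and blood 12 and 13 were at 0, with sums of 44.6 and 78.6 in WT MII and 69.2 and 25.9 in WT GV, and 0 of the 5 tested were called by limma, also 0 at an unadjusted p below 0.05. Their part in the results above was not tested.

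At MI, whose level is no part of the WT MII minus WT GV difference, most called genes stood between the 2 ends. As a share of the GV to MII change on the log2 scale, the median at MI was 40.4% for genes that rose and 52.2% for genes that fell, and 48.6% and 34.8% after median scaling. The WT GV and WT MII libraries enter both the call and the share, so it is a description. Among the 702 risers MI lay beyond MII in 90 and below GV in 145; among the 4463 fallers it lay beyond MII in 574 and above GV in 177.

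Single genes had several courses, given here as deposited levels with no test of each step. Median scaling divided the WT MI libraries by 0.654 and 0.662, the WT GV libraries by 1.17 and 1.18 and the WT MII libraries by 0.498 and 0.517. On that scale MI and MII levels stand higher against GV, so the courses below depend on the scale. Mos was near its MII level at MI, with 2219 and 2281 FPKM, and Oosp1 nearer to MII than to GV, with 6233 and 5721 FPKM. Btg4 was highest at MI, with 3269 and 3124 FPKM at GV, 6379 and 6704 FPKM at MI and 4836 and 5113 FPKM at MII. Dcp1a, Zbed3 and Rps27l gained their level after MI as deposited. Dcp1a had 240.1 and 230.0 FPKM at GV, 128 and 165 FPKM at MI and 693 and 615 FPKM at MII. Zbed3 stood at 8332 and 8175 FPKM at MI and Rps27l at 557 and 693 FPKM, both near GV. Among genes that fell, Lypd3 was down to 2.06 and 3.81 FPKM at MI and Psmc2 to 33.3 and 32.7 FPKM. Ooep and Tle6 were near their GV level at MI, and Padi6 and Npm2 above it. Ooep had 1847 and 1911 FPKM at GV, 2093 and 1858 FPKM at MI and 210.3 and 239 FPKM at MII, and Tle6 stood at 7175 and 7332 FPKM at MI. Padi6 had 7538 and 7547 FPKM at GV, 10193 and 10403 FPKM at MI and 2437 and 2295 FPKM at MII, and Npm2 stood at 3207 and 3302 FPKM at MI.

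**Figure D4:**
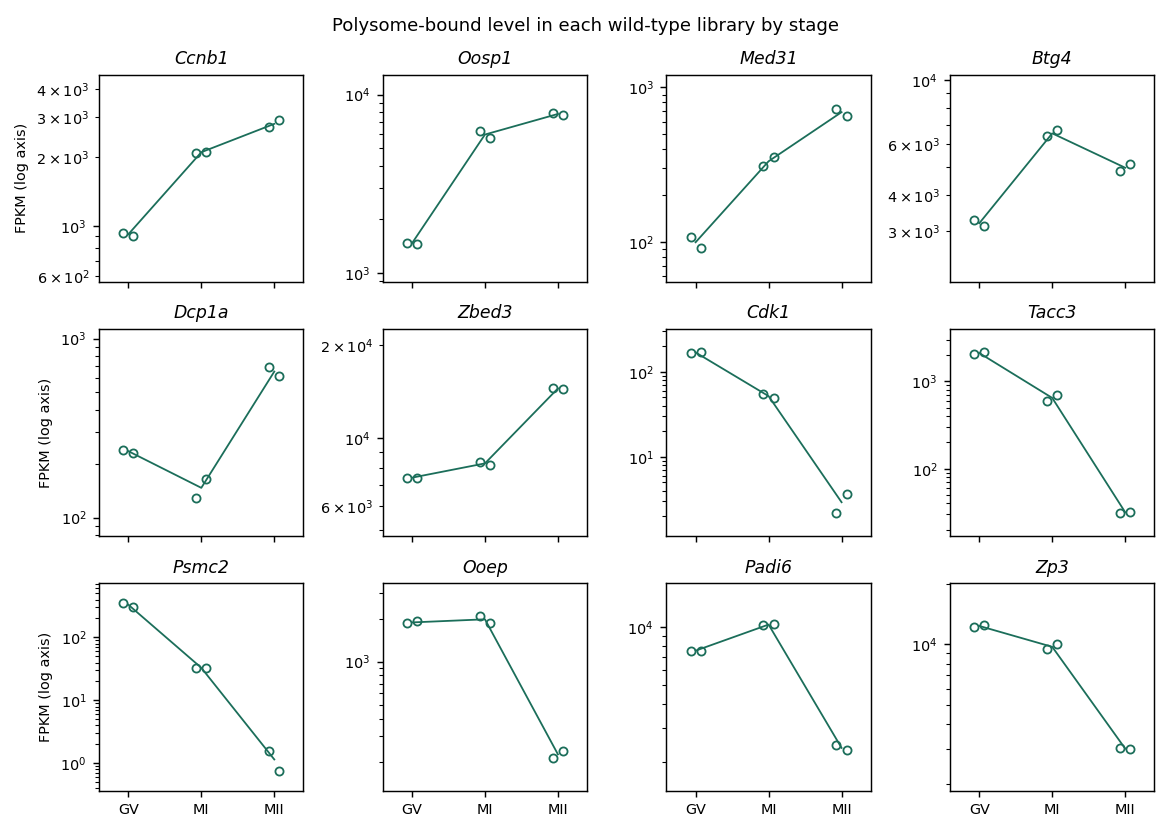
FPKM as deposited in each WT library at GV, MI and MII for 12 genes, on a log axis with its own range for each gene. Each stage has 2 circles, with a line through the stage means. Ccnb1, Oosp1 and Med31 are above GV at MI, Dcp1a and Zbed3 gain most of their level after MI, Btg4 is highest at MI, Cdk1, Tacc3 and Psmc2 are lower at each stage, and Ooep, Padi6 and Zp3 lose most of their level after MI.

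Whether the change differed between genotypes was tested as the difference of the GV to MII change, WT minus Cnot6l-/-, which shares no sample between its 2 arms. As deposited 205 genes had a more positive change in WT (1.76%) and 1868 a more negative one (16%), 17.8% in all, with a median difference of -0.89. After median scaling it was 625 (5.36%) and 881 (7.55%), 12.9% in all, with a median of -0.28. Cnot6l had 16.4 and 16 FPKM in Cnot6l-/- MII and 6.28 and 21.6 FPKM in Cnot6l-/- GV, so 1 library labelled Cnot6l-/- GV lay above 1 WT GV library and the levels at GV do not separate the genotypes. What the allele removes is not given in the sources used here, and the genotypes below are those of the labels.

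Several subcortical complex and zona messages that fell in WT did not fall in the knockout. Zp3 had a change of -2.03 in WT and 0.30 in Cnot6l-/-, where it had 9657 and 9463 FPKM at MII and 7669 and 7893 FPKM at GV, a difference of -2.33 ± 0.051 (adjusted p = 1.2e-09). Padi6 changed by -1.67 in WT and 1.18 in Cnot6l-/-, where it had 12708 and 13789 FPKM at MII and 5814 and 5906 FPKM at GV (-2.85 ± 0.063). Tle6 changed by -2.13 in WT and 0.89 in Cnot6l-/- (-3.02 ± 0.073), and Ooep by -3.06 in WT and 0.30 in Cnot6l-/- (-3.37 ± 0.13). After median scaling the differences were -1.46 for Zp3, -1.98 for Padi6, -2.15 for Tle6 and -2.50 for Ooep, all called. In the zona and subcortical complex list 9 of 12 had a more negative change in WT and 1 a more positive one, Zbed3. In the oocyte factors it was 29 and 2 of 45, in cytosolic ribosomal proteins 50 and 6 of 80, in respiratory chain genes 50 and 1 of 77, and in proteasome genes 28 and 0 of 41, with 31 and 0 at an unadjusted p below 0.05 in limma. After median scaling the more negative and more positive counts were 7 and 1 in the zona list, 18 and 9 in oocyte factors, 29 and 8 in cytosolic ribosomal proteins, 28 and 6 in respiratory chain genes and 19 and 3 in proteasome genes. The shares of all genes were 16% and 1.76% as deposited, and 7.55% and 5.36% after scaling. In each of these lists the more negative share was above that of all genes on both scales. The more positive share was above it after scaling as well.

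Of the 24 genes of the maturation-recruited list 2 had a more positive and 5 a more negative change in WT as deposited, and 11 and 2 after median scaling. For all genes the shares were 1.76% and 16% as deposited, and 5.36% and 7.55% after scaling. The more negative counts of the list are shares near these. Ccnb1 changed by 1.61 in WT and 1.77 in Cnot6l-/-, a difference of -0.16 ± 0.13 that was not called (adjusted p = 0.437). Plat and Oosp1 were not called either, at -0.25 ± 0.10 and 0.075 ± 0.088. After median scaling all 3 were called as more positive in WT, at 0.71 for Ccnb1, 0.62 for Plat and 0.95 for Oosp1. Dcp1a changed by 1.47 in WT and -0.10 in Cnot6l-/- (1.57 ± 0.25, adjusted p = 0.00166). Zbed3 changed by 0.97 in WT and 0.12 in Cnot6l-/- (0.84 ± 0.058). Rpl41 and Rps27l, a pair of the ribosomal protein genes that rose in WT, changed by -0.083 and 0.076 in Cnot6l-/-, with differences of 0.92 ± 0.11 and 1.31 ± 0.21. Btg4 changed by 0.64 in WT and 1.15 in Cnot6l-/-, a difference whose direction turned with the scale, at -0.51 ± 0.064 as deposited and 0.36 after median scaling, both called.

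**Figure D5:**
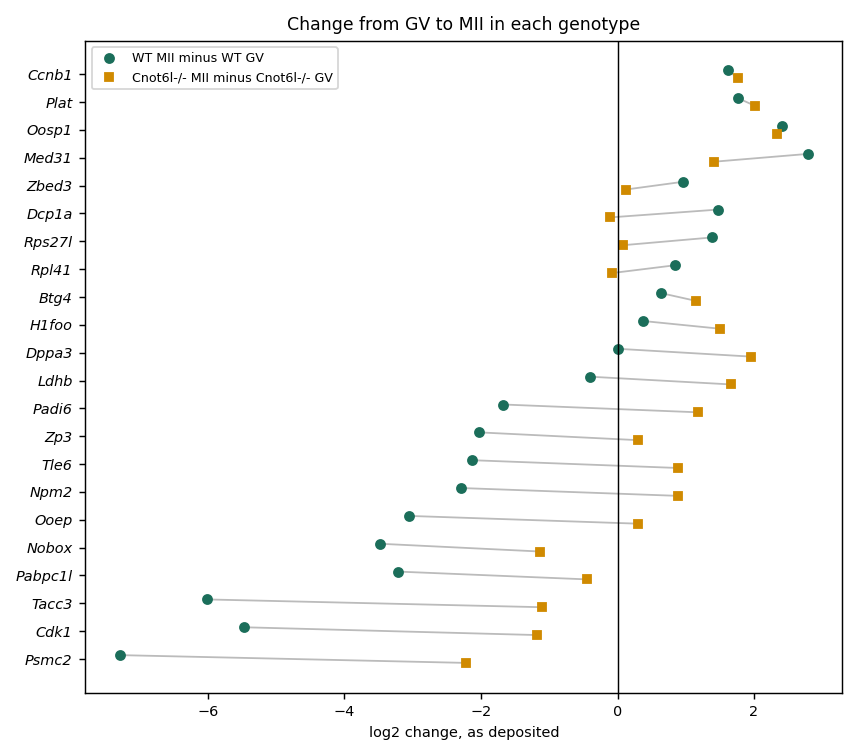
Log2 change as deposited for 22 named genes, WT MII minus WT GV (circles) and, below each, Cnot6l-/- MII minus Cnot6l-/- GV (squares). Ccnb1, Plat and Oosp1 lie close together in both genotypes on this scale, while Padi6, Zp3, Tle6, Npm2 and Ooep lie below 0 in WT and above 0 in Cnot6l-/-.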

How the data were processed

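Polysome-bound RNA of oocytes was sequenced from 500 pg of pre-amplified cDNA with a Tn5-based kit, per the labels' protocols. The authors deposited FPKM values, 1 column per library. The tools named are Cufflinks 2.2.1, TopHat2 2.0.11, CASAVA 1.8 and Bowtie2 2.1.0, with build mm9, per the submitters' processing notes. No source used here gives their annotation or filters. The table for each library holds the same values to 2 decimals. Low FPKM lie on steps of whole reads that leave a factor of 2 open, so reads were not recovered, depth is unknown and no count test was run.

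limma 3.58.1 in R 4.3.3 was fitted to log2(FPKM + 1) with 6 group means of the 12 libraries (trend, residual df 6, prior df 4.27), so the groups share 1 estimate of spread, for genes of mean FPKM at least 1. Median scaling used genes of mean FPKM at least 10. The fit was run on simulated data with normal noise. That simulation held no difference in library scale between WT MII and WT GV and no separate loss of genes in 1 replicate. It therefore cannot speak to either. Table starts are 0-based against GENCODE mouse release 1 (mm9), and positions are printed 1-based. Sequences are from that genome. No column was left out.

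Gene lists (26) and named genes were chosen with earlier results of these data known. Named are the 8 largest changes each way called on both scales, the 5 highest genes at 0 in 1 group, up to 3 called genes per list and direction, the 5 largest interactions each way of genes above 0 in at least 1 library of each of the 4 groups, and a fixed list, in part; predicted genes, small RNAs and symbols of 2 loci were skipped outside the lists, and 2 genes were added after their values were seen. Alternatives covered the pseudocount, filters, library scale, samples in the fit, group weights, a replicate block, discordant genes and each library left out.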

Additional observations from a re-analysis of the deposited data

Results flagged for a closer look

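The GV to MII change differed between the genotypes by a test of the difference, WT minus Cnot6l-/-, in 205 genes with a more positive and 1868 with a more negative change in WT. The 10 below were the largest among genes of mean FPKM at least 10 in some group and above 0 in at least 1 library of each of the 4 groups, so genes such as Nupr1, at 0 in both Cnot6l-/- MII libraries, are left out. They were chosen by the difference alone, whether or not their WT change was called, and some also vary in level between the genotypes at GV.

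Ccdc114 had a difference of 4.59, with 39.4 and 36.7 FPKM in WT MII against 2.04 and 8.69 in WT GV, and 3.55 and 6.88 in Cnot6l-/- MII against 17.3 and 21.1 in Cnot6l-/- GV. Bcat2, a branched-chain aminotransferase, had 4.37, with 1.6 and 5.98 FPKM in Cnot6l-/- MII against 49.9 and 33.6 in Cnot6l-/- GV. Ppp1r16b, a phosphatase regulator, had 4.14, and Loxl2, a lysyl oxidase, had 4.13, with 38.6 and 35.9 FPKM in WT MII against 14.2 and 16.5 in WT GV and 4.43 and 5.4 in Cnot6l-/- MII against 43.5 and 42.2 in Cnot6l-/- GV. Pcbp1, an RNA-binding protein, had 4.06. Its Cnot6l-/- GV libraries were 571 and 128 FPKM, and its call was lost without any 1 of 8 libraries.

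Fen1, the flap endonuclease, had -6.71, with 1.38 and 1.34 FPKM in WT MII against 127 and 139 in WT GV and 96.5 and 140.2 in Cnot6l-/- MII against 52.4 and 74.3 in Cnot6l-/- GV. Nck1, an adaptor, had -6.12, Ubxn1 had -6.03 and Rpn2, of the oligosaccharyltransferase, had -5.96, the last 3 with 1 WT MII library at 0. Rps27 had -6.10, with 0.65 and 26.1 FPKM in WT MII against 945 and 594 in WT GV. Its call was lost without WT GV replicate 1 or without Cnot6l-/- GV replicate 1.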

How the results depend on the processing

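Depth in reads is unknown, 2 libraries per group set the precision, and a library left out leaves an arm with 1 sample that is assumed to vary like the other groups. Another library scale moved the counts called as deposited by over 1.5 times, except the lower count with equal totals. Genes called higher and lower as deposited numbered 1235 and 3588 with equal totals, 2456 and 2067 with quantile normalization, 2378 and 2082 with an abundance trend removed and 2121 and 2632 with median scaling. The median change was -1.80 with a pseudocount of 0.1, -0.66 with no filter, -1.34 at a mean FPKM of at least 5, -0.87 with equal totals, 0.0050 with the trend removed, -0.44 with median scaling and, reversed, 0.19 with quantile normalization. The interaction counts, more positive and more negative in WT, were 477 and 947 with equal totals, 454 and 703 with quantile normalization, 662 and 721 with the trend removed and 625 and 881 with median scaling. What sets the scale was not tested.

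Leaving out 1 library gave 503 to 723 higher and 3379 to 4571 lower as deposited, 1583 to 2237 and 1722 to 2763 after median scaling, and 121 to 207 and 1162 to 2272 for the interaction. The median change then lay between -1.23 and -1.20. The lower count after scaling was 1722 without WT GV replicate 1 and 1734 without WT GV replicate 2. The interaction counts were 128 and 1198 without WT GV replicate 1, 121 and 1162 without WT GV replicate 2, and the more positive one was 125 without Cnot6l-/- MII replicate 2.

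Replicate numbers do not pair the samples: same-numbered libraries of WT MII and WT GV had a correlation of deviations of -0.0034. With the replicate block 697 genes were called higher and 4424 lower. With 1 weight per group, 520 were called higher and 3804 lower as deposited. The weight was 0.434 for WT MII and 1.37 for WT GV, where a lower weight stands for a larger spread.

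Of the named genes, direction turned as follows. H1foo turned to -0.0 with quantile normalization. Gdf9 was 0.50 with equal totals and 1.19 with median scaling. Zp1 was 0.11 and 0.80, Zp2 0.43 and 1.13, Dnmt1 0.24 and 0.93, and Ldhb 0.10 and 0.80 under the same 2 settings. Bmp15 was 0.55 and Nlrp5 0.54 with median scaling. With the trend removed Zp2 was 0.19, Dnmt1 0.22 and Dppa3 -0.18, and with quantile normalization Dnmt1 was 0.20. Some of these turned values were not called by limma. They are H1foo, Zp1 with equal totals (adjusted p = 0.271), and Dnmt1 with the trend removed (0.0506) or quantile normalization (0.0948). The call of Bmp15 was lost with equal totals and that of Zp1 with the trend removed. That of Nlrp5 was lost under both settings and with quantile normalization.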
